A study of Mus musculus with 18 samples.

Results

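The 10 genes described here encode the proteases, scaffold and extraction ATPase that keep the protein content of mitochondria in order: *Lonp1*, *Clpp*, *Clpx*, *Afg3l2*, *Spg7*, *Yme1l1*, *Htra2*, *Phb*, *Phb2* and *Atad1*. They were chosen by name and matched to their mouse Entrez genes, and all 10 of 10 were found among the 28096 genes counted and kept among the 14161 genes that passed the filter on low counts. Their mRNA was followed in 18 RNASeq libraries of splenic B cells from C57BL/6 N mice that were at least 8 weeks old, 3 libraries for each of 6 groups. The cells were WT or *Ubqln1*-/- (called knockout in the labels), and had been left resting or cultured for 4 hr with anti-IgM F(ab)2 at 10 μg/mL, which crosslinks the B cell receptor, or with K12 LPS at 20 μg/mL, which acts through a Toll-like receptor. The knockout allele lacks an exon of *Ubqln1* that was removed by Cre in ES cells, so the deletion is in the germline and not limited to B cells. Triplicate wells were pooled for RNA, the design text calls the 3 libraries of a group biological replicates, the study describes its RNASeq as independent experiments, and nothing in the sources used here says which mice or which experiment each library came from, so the p-values measure the spread between these libraries.

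Mitochondria hold several ATP-driven proteases. LONP1 and the CLPX-CLPP complex, in which CLPX unfolds substrates and CLPP cuts them, work in the matrix. AFG3L2 and SPG7 build the m-AAA protease, which faces the matrix from the inner membrane, whereas YME1L1 forms the i-AAA protease on the opposite face and HTRA2 is a serine protease of the intermembrane space. PHB and PHB2 alternate in ring-shaped scaffolds that associate with the m-AAA protease, and ATAD1 pulls mislocalized tail-anchored proteins out of the outer membrane. UBQLN1, the protein missing from the knockout cells, is a ubiquitin receptor and chaperone that handles mitochondrial membrane proteins in the cytosol, and the comparison between genotypes asks whether its loss changed the mRNA of the machinery that acts inside mitochondria.

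The libraries held 15368941 to 41072854 counts. The genotype label of every library was checked with *Ubqln1* itself. Its level, counted over all of its exons, was 62.2 to 92.0 RPKM in the 9 WT libraries and 24.8 to 34.8 RPKM in the 9 knockout libraries, with no overlap. This does not check the labels of stimulation. Here RPKM is the count scaled to gene width and to the TMM-scaled library total, on the usual RPKM scale. Summed CPM (the count scaled to the same total alone) of 5 B cell markers (*Cd79a*, *Cd79b*, *Ms4a1*, *Pax5* and *Cd22*) was 5011 to 6190 in resting cells, 1622 to 2165 with anti-IgM and 3115 to 4189 with LPS. In contrast, 6 T cell markers summed to at most 1.70 CPM, 4 NK cell markers to at most 4.79 and 5 erythroid genes to at most 4.56. The 6 myeloid markers summed to 21.7 to 50.9 CPM in resting libraries and to 11.1 to 20.9 CPM in stimulated ones, so the decrease in both the B cell and the myeloid markers moved with stimulation, and its part in the results below was not tested. In bulk RNA, fewer cells of a type and less RNA per cell cannot be told apart.

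Stimulation raised most of these mRNAs, and did so in both genotypes. After anti-IgM, 8 of the 10 genes passed the test in WT cells (an adjusted p under 0.05, edgeR), of which 7 rose and *Spg7* fell, with a median log2 fold change of 0.69 beside -0.01 over all genes tested. Of all tested genes, 32.4% rose and 32.2% fell in that comparison, so a call by itself was common. The counts in *Ubqln1*-/- cells with anti-IgM were again 7 up and 1 down (median 0.68), where 32.9% of all genes rose and 32.4% fell. After LPS, 8 rose and 1 fell in WT cells (median 0.56; 31.2% and 30.1% of all genes) and 8 rose and 1 fell in *Ubqln1*-/- cells (median 0.56; 30.6% and 30.2%). Both stimulations were compared with the same resting libraries. A rise of more than 2-fold was seen for *Phb* in all of these 4 comparisons and also for *Clpp* in *Ubqln1*-/- cells with anti-IgM. Of all genes, 9.49% rose by more than 2-fold with anti-IgM and 7.84% with LPS in WT cells, and 9.60% and 7.82% in *Ubqln1*-/- cells.

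**Figure D1:**
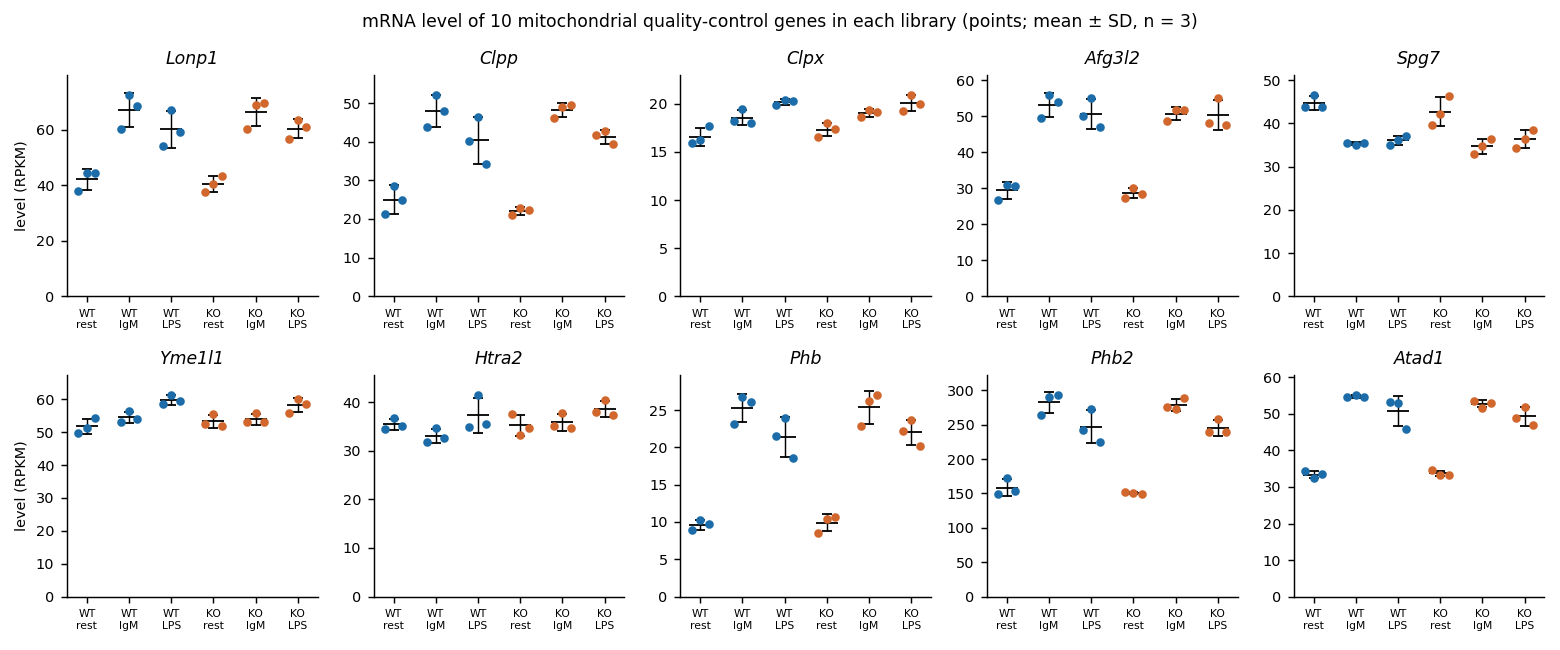
Level of each of the 10 genes in RPKM (vertical axes, starting at 0) in the 18 libraries, in WT (blue) and *Ubqln1*-/- (KO, orange) B cells that were resting (rest) or cultured with anti-IgM (IgM) or LPS; points are libraries and bars the mean ± SD of 3. *Phb* lies between 8.58 and 10.7 RPKM in the 6 resting libraries and between 18.6 and 27.0 in the 12 stimulated ones, while *Spg7* is lower in every stimulated library than in any resting one.

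Of the 10 genes, *Phb* showed the largest rise in each of the 4 comparisons with resting cells. This scaffold subunit was at 8.92, 10.2 and 9.69 RPKM in resting WT cells, at 23.2, 26.7 and 26.1 with anti-IgM and at 21.6, 23.9 and 18.6 with LPS. Its values in *Ubqln1*-/- cells were 8.58, 10.4 and 10.7 at rest, 22.8, 26.3 and 27.0 with anti-IgM and 22.2, 23.6 and 20.3 with LPS. Every stimulated library was above every resting one. The log2 fold change with anti-IgM was 1.39 ± 0.11 (SE) in WT cells (2.63-fold, adjusted p = 1.23e-08), which 5.33% of all tested genes exceeded, and 1.36 ± 0.11 in *Ubqln1*-/- cells (adjusted p = 1.54e-08). With LPS it was 1.15 ± 0.11 in WT cells (adjusted p = 1.64e-07) and 1.16 ± 0.11 in *Ubqln1*-/- cells (adjusted p = 1.65e-07).

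*Phb2*, its partner subunit, had the highest level of the 10 genes in every group. It was at 149, 172 and 154 RPKM in resting WT cells, at 264, 290 and 293 with anti-IgM and at 242, 273 and 225 with LPS. In *Ubqln1*-/- cells it was at 149 to 152 RPKM at rest, 272 to 289 with anti-IgM and 239 to 259 with LPS, and in each genotype the resting and stimulated libraries did not overlap. The log2 fold change with anti-IgM was 0.83 ± 0.07 in WT cells (1.78-fold, adjusted p = 3.66e-08) and 0.89 ± 0.07 in *Ubqln1*-/- cells (adjusted p = 1.88e-08), and with LPS it was 0.64 ± 0.07 and 0.71 ± 0.07 (adjusted p = 1.06e-06 and 3.75e-07).

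The level of *Phb* carries an uncertainty of its own. Of the distinct 50-base words in its GENCODE protein-coding transcripts, the length of the reads, 45.4% occur also in transcripts of 6 other annotated genes, 4 of them pseudogenes. The share was 21.5% for *Htra2*, 3.44% for *Phb2*, 1.53% for *Clpx* and 0.773% for *Yme1l1*, and no word of *Lonp1*, *Clpp*, *Afg3l2*, *Spg7* or *Atad1* was found elsewhere. How the authors counted reads that match more than 1 gene is not given in the sources used here. Within a library, the ratio of *Phb2* to *Phb* per base was 16.5 ± 0.5 (SD, n = 3) in resting WT cells, 11.2 ± 0.3 with anti-IgM and 11.6 ± 0.5 with LPS, and the part of the shared words in these ratios was not tested.

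The proteases of the matrix did not rise evenly. *Lonp1* was at 37.8, 44.5 and 44.4 RPKM in resting WT cells, at 60.5, 72.7 and 68.5 with anti-IgM and at 54.2, 67.1 and 59.1 with LPS. Its log2 fold change was 0.67 ± 0.09 with anti-IgM (adjusted p = 8.64e-06) and 0.51 ± 0.09 with LPS (adjusted p = 0.000169) in WT cells, and 0.72 ± 0.09 and 0.58 ± 0.09 in *Ubqln1*-/- cells (adjusted p = 4.10e-06 and 5.07e-05). *Clpp*, the peptidase, was at 21.2, 28.6 and 25.0 RPKM at rest, at 43.8, 52.2 and 48.0 with anti-IgM and at 40.3, 46.5 and 34.2 with LPS in WT cells, and no stimulated library was as low as a resting one. It rose by 0.94 ± 0.11 (log2) with anti-IgM in WT cells (1.91-fold, adjusted p = 1.02e-06) and by 1.12 ± 0.11 in *Ubqln1*-/- cells (2.18-fold, adjusted p = 1.40e-07). With LPS it rose by 0.69 ± 0.11 and 0.90 ± 0.11 (adjusted p = 3.73e-05 and 2.72e-06).

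*Clpx*, the unfoldase that feeds CLPP, moved far less. In WT cells it was at 15.9, 16.2 and 17.7 RPKM at rest, at 18.2, 19.4 and 18.0 with anti-IgM and at 19.8, 20.4 and 20.3 with LPS. The highest resting value thus lay just below the lowest one with anti-IgM. Its log2 fold change with anti-IgM was 0.16 ± 0.06 in WT cells (adjusted p = 0.0175) and 0.14 ± 0.06 in *Ubqln1*-/- cells (adjusted p = 0.0378). Neither call was stable: that in WT cells was lost without WT anti-IgM replicate 2 (adjusted p = 0.0878) or WT resting replicate 1 (adjusted p = 0.0694), and that in *Ubqln1*-/- cells without any 1 of 4 libraries, KO anti-IgM replicate 2 or 3 (adjusted p = 0.0743 and 0.0593) and KO resting replicate 1 or 3 (adjusted p = 0.150 and 0.0722). With LPS it rose by 0.28 ± 0.06 in WT cells (adjusted p = 0.000309) and by 0.21 ± 0.06 in *Ubqln1*-/- cells (adjusted p = 0.00322).

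**Figure D2:**
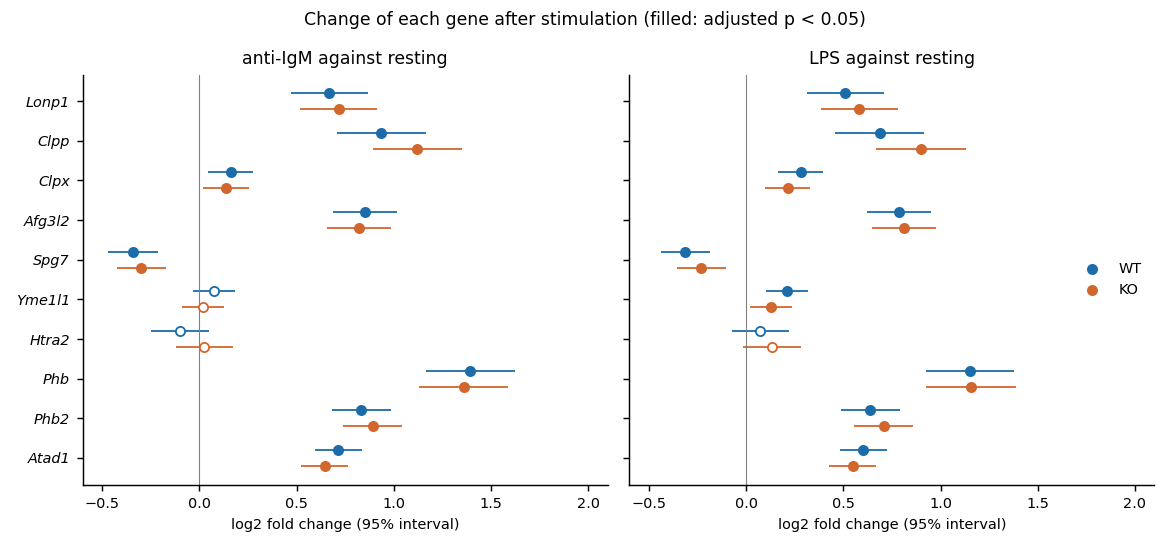
Log2 fold change (horizontal axes) with its 95% interval for each gene with anti-IgM (left) and LPS (right) against resting cells, in WT (blue) and *Ubqln1*-/- (KO, orange) B cells, 3 libraries a group; filled points have an adjusted p under 0.05. *Phb* lies farthest to the right in both panels, with 1.39 and 1.15 in WT cells, *Spg7* is the only point left of 0 that is filled, and *Htra2* is open throughout.

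The inner membrane AAA proteases went different ways. *Afg3l2*, the m-AAA subunit that can form the protease by itself, was at 26.8, 30.9 and 30.6 RPKM in resting WT cells, at 49.5, 56.0 and 54.1 with anti-IgM and at 50.0, 55.2 and 47.0 with LPS. It rose by 0.85 ± 0.08 (log2) with anti-IgM (1.81-fold, adjusted p = 6.44e-08) and by 0.79 ± 0.08 with LPS (adjusted p = 2.76e-07) in WT cells, and by 0.82 ± 0.08 and 0.81 ± 0.08 in *Ubqln1*-/- cells (adjusted p = 9.94e-08 and 2.11e-07). *Spg7* (paraplegin), which joins AFG3L2 in the mixed form of the protease, was the one gene of the 10 that fell. It was at 43.8, 46.7 and 43.9 RPKM in resting WT cells, at 35.6, 35.0 and 35.6 with anti-IgM and at 35.1, 36.2 and 37.0 with LPS. In *Ubqln1*-/- cells it was at 39.7, 42.2 and 46.3 RPKM at rest, at 33.0, 34.7 and 36.5 with anti-IgM and at 34.3, 36.5 and 38.4 with LPS. Stimulated libraries were thus below resting ones in each genotype. The log2 fold change was -0.34 ± 0.06 with anti-IgM (0.789-fold, adjusted p = 9.94e-05) and -0.31 ± 0.06 with LPS (adjusted p = 0.000261) in WT cells, and -0.30 ± 0.06 and -0.23 ± 0.06 in *Ubqln1*-/- cells (adjusted p = 0.000358 and 0.00345).

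*Yme1l1*, the i-AAA protease, was the second most abundant of the 10 at rest, at 49.7 to 54.3 RPKM in WT cells, and was at 53.2 to 56.4 with anti-IgM, where the groups overlapped and the log2 fold change was 0.08 ± 0.05 (adjusted p = 0.204). The value in *Ubqln1*-/- cells was 0.02 ± 0.05 (adjusted p = 0.770). With LPS it rose in WT cells to 58.6 to 61.3 RPKM (log2 fold change 0.21 ± 0.05, adjusted p = 0.00201). In *Ubqln1*-/- cells the rise with LPS was 0.13 ± 0.05 (adjusted p = 0.0387), and this call was lost without KO LPS replicate 2 or 3 (adjusted p = 0.144 and 0.0806), without KO resting replicate 1 or 3 (adjusted p = 0.108 and 0.122) and when libraries were scaled by their totals alone (0.05, adjusted p = 0.369). The 5′ end of *Yme1l1* overlaps *Mastl*, a kinase gene whose log2 fold change with LPS in WT cells was -0.94 ± 0.23. The 0.773% of *Yme1l1* words found elsewhere were all in 1 pseudogene and none in *Mastl* transcripts. The part of the overlap in the counts was not tested.

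*Htra2*, the intermembrane space protease, passed the test in no comparison. Its level was 34.5 to 36.7 RPKM in resting WT cells, 31.9 to 34.7 with anti-IgM and 34.9 to 41.5 with LPS, and these ranges overlapped. The log2 fold change with anti-IgM was -0.10 ± 0.07 in WT cells (adjusted p = 0.218) and 0.03 ± 0.07 in *Ubqln1*-/- cells (adjusted p = 0.761). With LPS it was 0.07 ± 0.07 (adjusted p = 0.385; -0.01 when libraries were scaled by their totals alone) and 0.13 ± 0.07 (adjusted p = 0.110). The gene overlaps *Loxl3* and *Aup1* at its ends, with 21.5% of its words shared with those genes, and *Loxl3* was also the gene whose pattern over the 18 libraries was most like that of *Htra2* (Pearson's r = 0.890), and whether the counting used strand is not given in the sources used here.

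*Atad1*, the outer membrane ATPase, was at 34.4, 32.4 and 33.5 RPKM in resting WT cells, at 54.5, 55.2 and 54.6 with anti-IgM and at 53.3, 52.9 and 46.0 with LPS. Its 3 WT libraries with anti-IgM had the smallest spread relative to the mean of any of the 10 genes in WT cells (54.8 ± 0.4, SD). It rose by 0.71 ± 0.06 (log2) with anti-IgM (1.64-fold, adjusted p = 1.63e-08) and by 0.60 ± 0.06 with LPS (adjusted p = 1.75e-07) in WT cells, and by 0.65 ± 0.06 and 0.55 ± 0.06 in *Ubqln1*-/- cells (adjusted p = 4.87e-08 and 4.99e-07).

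Levels per length put the genes in a different order at rest and with anti-IgM in WT cells. *Phb* (45.4%) and *Htra2* (21.5%) share words with other genes, and the part of these words in their places was not tested. In resting WT cells the mean was highest for *Phb2* (158 RPKM), followed by *Yme1l1* (51.8), *Spg7* (44.8), *Lonp1* (42.2), *Htra2* (35.5), *Atad1* (33.4), *Afg3l2* (29.4), *Clpp* (25.0), *Clpx* (16.6) and *Phb* (9.61). Of neighbours in that order, *Spg7* and *Lonp1* overlapped, as did *Afg3l2* and *Clpp*. With anti-IgM the order was *Phb2* (282 RPKM), *Lonp1* (67.2), *Atad1* (54.8), *Yme1l1* (54.6), *Afg3l2* (53.2), *Clpp* (48.0), *Spg7* (35.4), *Htra2* (33.1), *Phb* (25.3) and *Clpx* (18.6). There *Atad1*, *Yme1l1* and *Afg3l2* each overlapped the next gene in the order. *Spg7* thus moved from place 3 to place 7 in WT cells with anti-IgM, and was in place 3 at rest and in place 8 in the other stimulated groups. *Atad1* moved from place 6 to place 3, and stood in place 4 in WT cells with LPS and *Ubqln1*-/- cells with anti-IgM and in place 5 in *Ubqln1*-/- cells with LPS.

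Ratios taken within a library compare partner subunits without any scaling between libraries. *Clpx* to *Clpp* (counts per base of gene width) was 0.751, 0.566 and 0.705 in resting WT cells, 0.417, 0.372 and 0.375 with anti-IgM and 0.492, 0.440 and 0.593 with LPS. In *Ubqln1*-/- cells it was 0.774 to 0.789 at rest, 0.388 to 0.403 with anti-IgM and 0.463 to 0.508 with LPS, so that resting and stimulated libraries overlapped only for LPS in WT cells. Over both genotypes the ratio with anti-IgM was 0.541 times that at rest (exact permutation test within genotype, two-sided, p = 0.005, adjusted p = 0.009 over 9 ratio tests) and that with LPS 0.684 times (exact p = 0.01, adjusted p = 0.015). The smallest p that these 400 assignments allow is 0.005.

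*Spg7* to *Afg3l2* moved the most. The ratio was 1.64, 1.51 and 1.43 in resting WT cells, 0.719, 0.624 and 0.658 with anti-IgM and 0.702, 0.655 and 0.788 with LPS, and in *Ubqln1*-/- cells it was 1.40 to 1.62, 0.671 to 0.703 and 0.662 to 0.805. *Spg7* mRNA was thus above *Afg3l2* mRNA in every resting library and below it in every stimulated one. The ratio with anti-IgM was 0.448 times that at rest, and with LPS 0.477 times (exact permutation test, p = 0.005 and adjusted p = 0.009 for each). *Phb2* to *Phb* fell to 0.699 times its resting value with anti-IgM and to 0.716 times with LPS (exact permutation test, p = 0.005 and adjusted p = 0.009 for each), subject to the shared words of *Phb*. None of the 3 ratios passed the test between genotypes (exact permutation test within condition, adjusted p = 0.388, 0.879 and 0.254 for *Clpx* to *Clpp*, *Spg7* to *Afg3l2* and *Phb2* to *Phb*). Without KO resting replicate 1, whose *Phb2* to *Phb* ratio of 17.7 stood above the 14.5 and 13.9 of the other KO resting libraries, the last of these passed (log2 difference -0.09, exact permutation test, adjusted p = 0.0495).

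**Figure D3:**
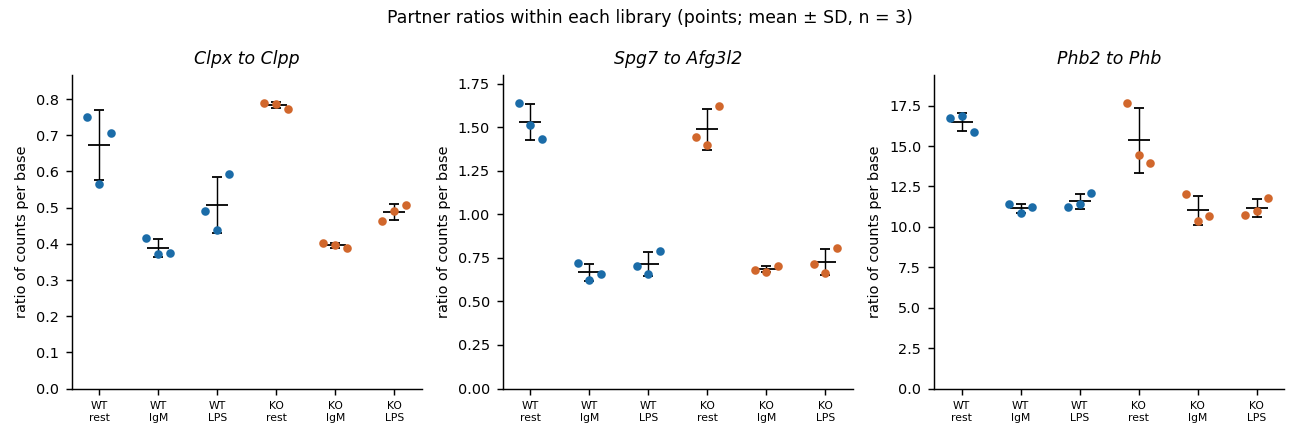
Ratio of counts per base (vertical axes, starting at 0) of *Clpx* to *Clpp*, *Spg7* to *Afg3l2* and *Phb2* to *Phb* in each library of WT (blue) and *Ubqln1*-/- (KO, orange) B cells, resting (rest) or with anti-IgM (IgM) or LPS; bars are the mean ± SD of 3. *Spg7* to *Afg3l2* is above 1 in every resting library (1.40 to 1.64) and below 1 in every stimulated one (0.624 to 0.805).

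The response to LPS was compared directly with that to anti-IgM. In WT cells, *Phb2* was lower with LPS (log2 fold change -0.19 ± 0.07, adjusted p = 0.0463), and no other of the 10 passed the test. An unadjusted p under 0.05 was seen for 6 of the 10, *Phb2* among them, and for 5823 of all 14161 genes. Of all genes, 17.4% were higher and 15.0% lower with LPS. The 3 libraries of each group overlapped for *Phb2*, and the call was lost without WT LPS replicate 1 or 3 (adjusted p = 0.121 and 0.200) or WT anti-IgM replicate 2 or 3 (adjusted p = 0.132 and 0.145). The estimates for *Clpp* and *Phb* were of like size but did not pass (-0.25 ± 0.11 and -0.24 ± 0.10, adjusted p = 0.0820 and 0.0830), and both passed without WT LPS replicate 2 (-0.36 and -0.33, adjusted p = 0.0142 and 0.0278). On the other side were *Htra2* (0.17 ± 0.07), *Yme1l1* (0.13 ± 0.05) and *Clpx* (0.12 ± 0.05), of which *Htra2* passed without WT LPS replicate 1 (0.22, adjusted p = 0.0401). In *Ubqln1*-/- cells 0 of the 10 passed with edgeR, where 16.8% of all genes were higher and 14.5% lower. Of the 10, 2 had an unadjusted p under 0.05 (*Phb2* and *Yme1l1*), as did 5739 of all 14161 genes. Among the 10, limma called 0 and DESeq2 called 1. This comparison depended on how libraries were scaled: over all genes, TMM gave 2468 higher and 2122 lower in WT cells and 2380 and 2057 in *Ubqln1*-/- cells, while library totals alone gave 2089 and 2702, and 1806 and 2773. With totals alone, 4 of the 10 were called in each genotype. With the replicate number as a block, 7 of the 10 passed in WT cells and 5 in *Ubqln1*-/- cells, where 42.8% and 41.8% of all genes passed in either direction.

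No difference between genotypes was detected for any of the 10. In resting cells 0 of 10 passed the test (edgeR), where 0.0565% of all genes did. With anti-IgM it was 0 of 10 (0.0989% of all genes) and with LPS 0 of 10 (0.0424%). No gene of the 10 had an unadjusted p under 0.05 in these comparisons, where 597, 728 and 557 of the 14161 genes did (resting, anti-IgM and LPS). The limma and DESeq2 fits also called 0 of the 10. The widest departures were those of *Clpp* in resting cells, with 21.2, 28.6 and 25.0 RPKM in WT and 21.0, 22.9 and 22.4 in *Ubqln1*-/- cells (log2 fold change -0.18 ± 0.11, 95% interval -0.41 to 0.05), and of *Htra2* with anti-IgM, with 31.9, 34.7 and 32.7 against 35.0, 37.8 and 34.8 RPKM (0.12 ± 0.07, 95% interval -0.03 to 0.26). The libraries of *Htra2* did not overlap, and its unadjusted p was 0.114. Those of *Atad1* with anti-IgM did not overlap either and were lower in *Ubqln1*-/- cells (54.5, 55.2 and 54.6 against 53.7, 51.7 and 53.0 RPKM, log2 fold change -0.05 ± 0.06, unadjusted p = 0.355). The share of all genes whose libraries did not overlap in this way was not counted, so neither separation is read as a difference. Over the 10 genes, the 95% intervals of the genotype difference reached from -0.41 to 0.27 in resting cells, from -0.23 to 0.26 with anti-IgM and from -0.19 to 0.26 with LPS on the log2 scale. *Ubqln1* itself was lower by 1.27 ± 0.07, 1.42 ± 0.07 and 1.44 ± 0.07 on that scale.

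**Figure D4:**
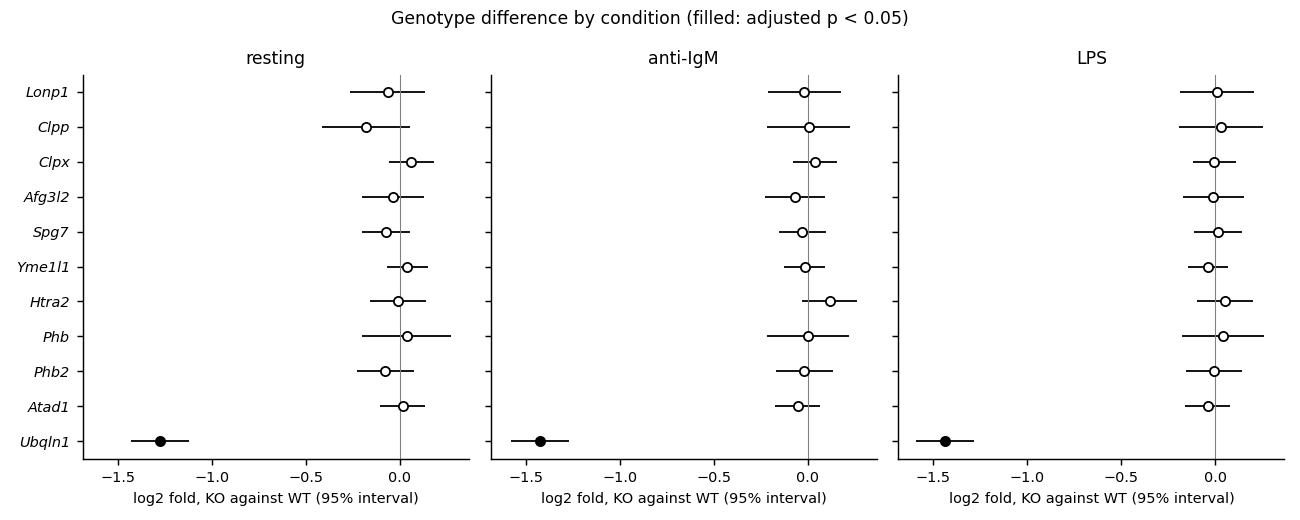
Log2 fold change of *Ubqln1*-/- (KO) against WT cells (horizontal axes) with its 95% interval for the 10 genes and *Ubqln1*, in resting cells and with anti-IgM or LPS, 3 libraries a group; filled points have an adjusted p under 0.05. All 10 genes are open in each panel, with no interval reaching below -0.41 (*Clpp*, resting) or above 0.27 (*Phb*, resting), and *Ubqln1* is filled at -1.27, -1.42 and -1.44.

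The response itself was also compared between genotypes through the interaction term. For the response to anti-IgM, 0 of 10 passed with edgeR, as did 0% of all genes, and for the response to LPS 0 of 10 and 0% of all genes. At an unadjusted p under 0.05 it was also 0 of 10 for each, beside 140 and 220 of the 14161 genes. The limma and DESeq2 fits called 0 of the 10. The estimate farthest from 0 was that of *Clpp*, whose response was larger in *Ubqln1*-/- cells by 0.19 ± 0.15 with anti-IgM and by 0.21 ± 0.15 with LPS (log2, unadjusted p = 0.242 and 0.186). Both estimates use the same resting libraries. Intervals over the 10 genes reached from -0.35 to 0.51 and from -0.32 to 0.54.

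Other mitochondrial proteases and their partners moved in both directions. Of 17 genes listed, 16 were tested, and in WT cells with anti-IgM 10 rose, 3 fell and 3 did not pass (median log2 fold change 0.35 beside -0.01 over all genes, of which 32.4% rose and 32.2% fell). The counts were 11 up and 3 down in *Ubqln1*-/- cells with anti-IgM (32.9% and 32.4% of all genes). With LPS they were 11 up and 2 down in each genotype (31.2% and 30.1% of all genes in WT cells, 30.6% and 30.2% in *Ubqln1*-/- cells). *Pitrm1*, which degrades cleaved presequences in the matrix, rose by 1.22 ± 0.15 (log2, WT, anti-IgM), *Parl*, the rhomboid protease of the inner membrane, by 0.92 ± 0.08 and *Atp23* by 0.77 ± 0.12. The 3 that fell were *Afg1l* (-0.74 ± 0.15) and, named after their values were seen, *Lactb* (-0.70 ± 0.09) and *Oma1* (-0.38 ± 0.09), the stress-activated inner membrane protease that cleaves OPA1.

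Of 10 genes for known substrates of these proteases, 3 rose, 1 fell and 6 did not pass in WT cells with anti-IgM (median 0.09). That share of rises was near the 32.4% over all genes. In each of the 3 other comparisons with resting cells 5 rose and 1 fell, where 30.6% to 32.9% of all genes rose and 30.1% to 32.4% fell. *Ghitm* rose by 1.17 ± 0.10, *Timm17a*, an import channel subunit degraded by YME1L1, by 0.81 ± 0.10, and *Mrpl32*, a ribosomal protein matured by the m-AAA protease, by 0.38 ± 0.08. *Xiap*, a caspase inhibitor bound by HTRA2, fell with anti-IgM (-0.38 ± 0.06).

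All 9 genes listed for the mitochondrial unfolded protein response rose in all 4 comparisons with resting cells (median 1.06 in WT cells with anti-IgM and 0.80 with LPS, where 32.4% and 31.2% of all genes rose). The largest changes with anti-IgM were those of the matrix chaperones *Hspd1* (1.76 ± 0.14) and *Hspa9* (1.64 ± 0.14) and of the transcription factors *Atf5* (1.48 ± 0.15) and *Ddit3* (1.29 ± 0.12). Of 5 genes taken as markers of mitochondrial content, 4 rose in WT cells with anti-IgM and none fell (median 0.31). In the 3 other comparisons 5, 4 and 4 rose. Of all genes, 32.4% rose in the first comparison and 30.6% to 32.9% in the others. *Tomm20*, an import receptor, rose by 1.34 ± 0.20, and *Vdac1*, *Vdac2* and *Cs* (citrate synthase) by 0.40 ± 0.06, 0.31 ± 0.07 and 0.15 ± 0.05. The genes of these lists that passed all rose, as did most of the 10 in the same comparisons, while *Spg7* fell and *Htra2* did not pass. The part of the list genes in the changes of the 10 was not tested. None of the genes in these 4 lists passed the test between genotypes in any condition. Such calls were rare over all genes (LPS 0.0424%, resting 0.0565%, anti-IgM 0.0989%), so their absence does not set these lists apart.

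**Figure D5:**
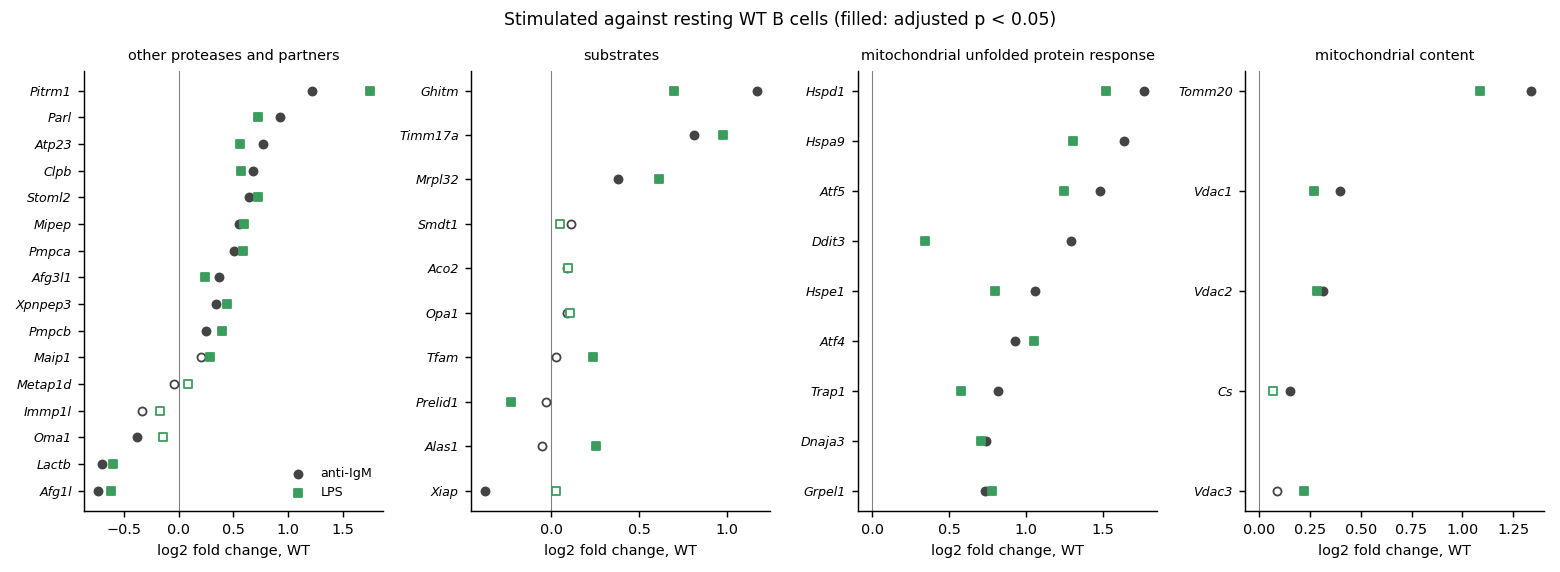
Log2 fold change (horizontal axes) of stimulated against resting WT B cells for the genes of 4 lists, with anti-IgM (circles) and LPS (squares), 3 libraries a group; filled symbols have an adjusted p under 0.05. All 9 genes of the mitochondrial unfolded protein response are filled and to the right of 0, while the other proteases reach from -0.74 to 1.22 with anti-IgM.

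The genes whose log2 CPM over the 18 libraries was most like that of each of the 10 were taken as a description. The libraries fall into resting, anti-IgM and LPS groups, so the points behind each coefficient are not independent. For *Phb* these were *Shq1*, *Eef1aknmt* and an unnamed gene (Pearson's r from 0.995 to 0.996), and for *Phb2* they were *Rbm19*, *Bzw2* and *Znrd2* (r = 0.995 for each). For *Lonp1* they were *Ubqln4*, a relative of the deleted gene, *Plbd2* and *Aven* (r from 0.988 to 0.991), and for *Clpp* they were *Polr2h*, *Timm50* and *Klhdc4* (r = 0.992 for each). *Afg3l2* was closest to *Cct8*, *Pa2g4* and *Abcf1* (r from 0.998 to 0.999), and among those of *Atad1* were *Fubp1* and *Mrps14* (r = 0.989 and 0.988). The genes that moved little had less close neighbours: *Clpx* had *Nemf*, *Zfp770* and *Polr2b* (r up to 0.959), *Spg7* had *Trpc4ap*, *Whamm* and *Smad7* (r up to 0.957), *Yme1l1* had *Tpr*, *Gpbp1* and *Baz1b* (r up to 0.945) and *Htra2* had *Loxl3*, *Ldah* and *Ttc39c* (r up to 0.890).

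The 250 bases before the start sites of *Phb*, *Phb2*, *Lonp1* and *Clpp*, which rose, and of *Spg7*, which fell, are shown. They are from RefSeq (GRCm38.p6), 5′ to 3′ on the strand of the gene. *Atad1* and *Afg3l2* also rose, but the window of *Atad1* is not shown and none was taken for *Afg3l2*. Capitals mark matches on either strand to CACGTG (the E-box), CCGGAAG (an ETS core) and CCAAT.
Phb (chr11:95666707-95666956, + strand): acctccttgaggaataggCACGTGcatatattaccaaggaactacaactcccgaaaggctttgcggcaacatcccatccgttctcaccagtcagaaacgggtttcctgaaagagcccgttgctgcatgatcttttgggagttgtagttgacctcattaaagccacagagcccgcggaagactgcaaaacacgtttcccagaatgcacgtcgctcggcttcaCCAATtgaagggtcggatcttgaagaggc
Phb2 (chr6:124712039-124712288, + strand): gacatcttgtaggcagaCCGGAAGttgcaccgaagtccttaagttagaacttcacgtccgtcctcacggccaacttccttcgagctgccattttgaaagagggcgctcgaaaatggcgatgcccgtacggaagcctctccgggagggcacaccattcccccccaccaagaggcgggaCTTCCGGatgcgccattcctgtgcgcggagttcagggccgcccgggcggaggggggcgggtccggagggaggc
Lonp1 (chr17:56626904-56627153, - strand): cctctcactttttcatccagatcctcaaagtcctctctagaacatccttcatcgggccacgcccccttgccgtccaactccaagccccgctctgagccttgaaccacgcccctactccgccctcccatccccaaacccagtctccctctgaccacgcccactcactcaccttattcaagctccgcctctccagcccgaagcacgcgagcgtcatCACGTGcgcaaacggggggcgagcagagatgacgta
Clpp (chr17:56990014-56990263, + strand): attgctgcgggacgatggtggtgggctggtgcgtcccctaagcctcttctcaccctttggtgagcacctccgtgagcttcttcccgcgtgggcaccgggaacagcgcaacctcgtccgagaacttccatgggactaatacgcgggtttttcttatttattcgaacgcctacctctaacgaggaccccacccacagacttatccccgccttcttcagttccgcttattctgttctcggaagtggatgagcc
Spg7 (chr8:123065258-123065507, + strand): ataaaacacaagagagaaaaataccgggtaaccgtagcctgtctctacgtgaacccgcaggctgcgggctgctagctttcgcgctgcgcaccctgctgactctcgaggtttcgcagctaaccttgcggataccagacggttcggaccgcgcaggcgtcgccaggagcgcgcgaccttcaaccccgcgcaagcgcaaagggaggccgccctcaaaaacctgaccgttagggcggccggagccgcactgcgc
The E-box of *Lonp1* begins 36 bases before the start and that of *Phb* 232 bases before it, and CCAAT begins 29 bases before the start of *Phb*. CCGGAAG lies 233 and 73 bases before the start of *Phb2*. Neither *Clpp* nor *Spg7* holds any of these letters in this window.

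Promoter windows were taken for 8 of the 10 genes. None was listed for *Htra2*, and promoters of these genes on chromosome 18, where *Afg3l2* lies, were left out. The windows of *Yme1l1*, *Clpx* and *Atad1* reach inside the outermost limits of the gene, since the start used is an inner one. CACGTG was in 2 of the 8 (*Phb* and *Lonp1*) and in 6.02% of all 32851 windows of that length, CCGGAAG in 3 of 8 (*Phb2*, *Atad1* and *Yme1l1*) and in 6.91% of all, and CCAAT in 3 of 8 (*Phb*, *Clpx* and *Yme1l1*) and in 33.8% of all. Also searched was GCATGCGC, the core of an NRF1 site, which was in 2 of 8 (*Clpx* and *Atad1*) and in 2.26% of all. No matches overlapped in these 8 windows. Their GC content ran from 50.8% (*Phb*) to 64.0% (*Atad1*), where the median of all windows was 52.4% and only *Phb* lay below it. The part of base content in the shares above was not tested. These matches are letters in a window, and binding was not measured.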

How the data were processed

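B cells isolated from spleen were stimulated for 4 hr, and polyA RNA was sequenced as single 50-base reads. The authors mapped reads to GRCm38 with GSNAP and deposited exonic read counts per Entrez gene, without normalization, and RPKM. The deposited RPKM was not tested. The counting program, annotation release and use of strand are not given in the sources used here. Libraries held 15368941 to 41072854 counts. A library with no number in its label, beside libraries 2 and 3 of its group, was taken as replicate 1 by elimination.

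Counts were fitted over all 18 libraries with edgeR 4.0.16 in R 4.3.3 (TMM, its expression filter, 14161 genes, quasi-likelihood test, 6 groups, no block), where the study used limma with voom on single-term models. Calls are Benjamini-Hochberg adjusted p-values under 0.05 over all tested genes. An SE is the log2 fold change divided by the square root of F. Ratios used exact permutation tests. Scripts were tested on simulated data. Symbols came from RefSeq and matched 89.1% of 28096 genes; of the genes looked up, *Immp2l* and *Hbb-bt* had no single match.

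All 10 genes are named. Up to 4 genes of each list are named, those with the largest change among the called genes in WT cells with anti-IgM, and for each of the 10 the 3 genes with the highest Pearson's r of log2 CPM (prior count 2). A B cell marker and a gene selected by this rule are not reported here. The genes and lists were chosen with earlier results of these data known. Alternatives were limma 3.58.1 with voom, DESeq2 1.42.0, RLE, library totals alone, no filter, a minimum of 10 counts per library, a block for the replicate number, the compared groups alone, a log2 fold change threshold of 1, and each library left out.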

Additional observations from a re-analysis of the deposited data

How the results depend on the processing

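No direction of a call reversed. Requiring a log2 fold change over 1 left 1 and 2 of the 10 genes with anti-IgM (WT and KO), 1 and 1 with LPS, and 0 for LPS against anti-IgM in WT cells. Under the other settings, LPS against anti-IgM (1 gene in WT, 0 in KO) was the comparison whose count moved by more than 1 gene: DESeq2 gave 2 and 1, library totals alone 4 and 4, no filter 0 in WT, 10 counts in every sample 1 in KO, the compared groups alone 0 and 2, and leaving out a library 0 to 3 and 0 to 1. Of all 14161 genes, the main fit called 4590 and 4437 there, DESeq2 4706 and 4504, and library totals alone 4791 and 4579. The compared groups alone gave 3376 of 13716 and 4662 of 13613. The *Phb2* to *Phb* genotype difference ranged from -0.0949 to -0.0383 (log2) over libraries left out. The cause was not tested. Of 1100 values of the 10 genes under alternatives, 1049 were unchanged. Of these, called values kept their call and direction, and uncalled ones stayed uncalled and within an SE of the main value. Another 10 lost a call, 27 gained one and 14 uncalled ones moved by an SE or more. Libraries left out entered these values only as the lowest and highest estimate of each gene and comparison, so calls lost in between are not in these counts.

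Deviations from the group means correlated between samples of one number (mean 0.266, range 0.055 to 0.516, 43 of 45 pairs over 0.1, and 18 of 18 samples correlated best with their own number), but the number 1 was assigned by elimination. The study describes independent experiments and used a paired test for some mRNAs, and no source says that a number marks an experiment. With the replicate number as a block, LPS against anti-IgM gave 7 genes in WT and 5 in KO cells (42.8% and 41.8% of all genes), and it changed no other count. Ratios of partner genes taken between samples of one number fell with stimulation in 6 of 6 pairs (exact sign-flip permutation test, p = 0.03125, adjusted p = 0.0469). This p is the smallest that 6 pairs allow, and the test treated the WT and KO pairs of one number as independent.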
